A study of Mus musculus with 9 samples.

Results

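The 10 genes described here restrain the Wnt pathway, and the pathway itself switches several of them on; they were followed through RNA-seq of mouse bile duct organoids given R-spondin 1 (Rspo1). They were chosen by name: Axin2, Nkd1, Nkd2, Notum, Znrf3, Rnf43, Apcdd1, Wif1, Sfrp1 and Dkk3. All 10 were found among the 32137 genes of the deposited count files, and 4 of them (Axin2, Rnf43, Znrf3 and Notum) had enough counts to be tested. The other 6 members had at most 14 counts in any library and are described by their counts.

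In the canonical Wnt pathway a secreted Wnt ligand binds a Frizzled receptor and its co-receptor Lrp5 or Lrp6, the cytoplasmic destruction complex stops degrading beta-catenin, and beta-catenin activates genes together with TCF/LEF factors. Some of the activated genes encode brakes. Axin2 rebuilds the destruction complex, Znrf3 and Rnf43 are membrane ubiquitin ligases that remove Frizzled receptors, and Notum is a secreted enzyme that strips the lipid Wnt needs to bind. R-spondins act on this layer: bound to Lgr4, Lgr5 or Lgr6, they draw Znrf3 and Rnf43 off the cell surface, which leaves more receptor for Wnt.

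The 9 libraries came from organoids of 1 male mouse of mixed genetic background with the genotype Axin2CreERT2+/-; R26-LSL-tdTom+/-. Every culture was expanded for 2 to 4 days, differentiated for 11 days and held for its last 24 h in 3 uM dexamethasone and 500 nM 4-OHT (4-hydroxytamoxifen). The untreated group received no Rspo1 and consists of tdTom-negative cells. The Rspo1-negative and Rspo1-positive groups are the tdTom-negative and tdTom-positive cells of organoids that had 100 ng/ml Rspo1 in the same 24 h. Each group has 3 libraries, replicates 1, 2 and 3, taken at passages 5, 6 and 10. The sort reporter depends on a tamoxifen-activated Cre expressed from Axin2, 1 of the genes described here, so a tdTom-positive cell is one that had active Axin2-driven Cre during tamoxifen exposure. No group holds tdTom-positive cells without Rspo1, all 3 groups carry the Cre and reporter alleles, and p-values between groups measure the spread between cultures of 1 animal.

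Library totals ran from 23423979 to 37351448 counts, with 22021 to 24578 genes detected per library. All 11 biliary epithelium markers were above 3 counts in every library of each group. Of 6 endothelial markers in the files 2, Lyve1 and Vwf, exceeded 3 counts in every library, Cdh5 had 0 counts throughout, and the list summed to at most 1.34 CPM in any library. Levels are given as CPM, the counts of a gene divided by the TMM-scaled size of its library. Summed CPM of 15 proliferation genes separated the groups: 190.4 to 284 in untreated, 425 to 504 in Rspo1-negative and 906 to 1210 in Rspo1-positive libraries. The 10 fibroblast, stellate or smooth muscle markers in the files summed to 7.48 to 19.4, 20.2 to 68.1 and 7.53 to 45.7 CPM in the same order. These sums are nearly all Reln, with means of 14.0, 43.7 and 27.4 CPM, whereas each of the other 9 markers had a mean under 1 CPM in each group and Lum had no counts. The 5 mesothelium markers summed to 923.3 to 1548, 869.1 to 1525 and 596.7 to 960 CPM, nearly all Msln. The 12 hepatocyte markers summed to 361 to 722.9, 411.7 to 724.5 and 327.6 to 489.5 CPM, mostly Ttr and Hnf4a. The 6 blood and immune markers in the files summed to 17.6 to 27.5, 17.1 to 29.2 and 14.5 to 19.6 CPM, mostly Cd68 and Itgam. Of 10 dissociation response genes, 2 were called higher between the gates, Fos and Fosb, with mean CPM of Fos at 109 in untreated, 103 in Rspo1-negative and 358 in Rspo1-positive cells. Over all tested genes 14.6% were called higher between the gates. With passage as a replicate block 6 of the 10 dissociation genes were called higher and 2 lower in Rspo1-positive against untreated cells, in place of 0 and 1. Of all 17011 tested genes the block called 2247 in that comparison, in place of 886. The part that any of these lists plays in the results was not tested.

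The tested members shared no single pattern. Axin2 rose from a very low level in both Rspo1 groups, Rnf43 rose in both from a high level, and Znrf3 rose in tdTom-positive cells without passing the test in tdTom-negative cells of the same cultures. Notum stayed near the detection limit. In Rspo1-positive against untreated cells 3 of the 4 tested members were called, all higher, by edgeR's quasi-likelihood test at an adjusted p under 0.05, where 5.21% of the 17011 tested genes were called and 3.07% were called higher. This count of 3 fell to 1, Axin2, when any of untreated replicates 1 or 3 or Rspo1-positive replicates 1, 2 or 3 was left out. The groups of this comparison also differ in the tdTom gate, which Axin2-driven Cre sets. Treatment and sort therefore cannot be told apart in it, and the Axin2 call is not independent of the sort. In Rspo1-negative against untreated cells 2 of 4 were called, both higher, against 21.9% of all tested genes called and 8.00% higher. Between the Rspo1 gates 1 of 4 was called, against 24.3% of all genes called and 14.6% higher. The first 2 of these comparisons share the untreated libraries, and each shares a Rspo1 group with the gate comparison. In bulk RNA, fewer cells expressing a gene and less of its RNA per cell cannot be told apart.

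**Figure D1:**
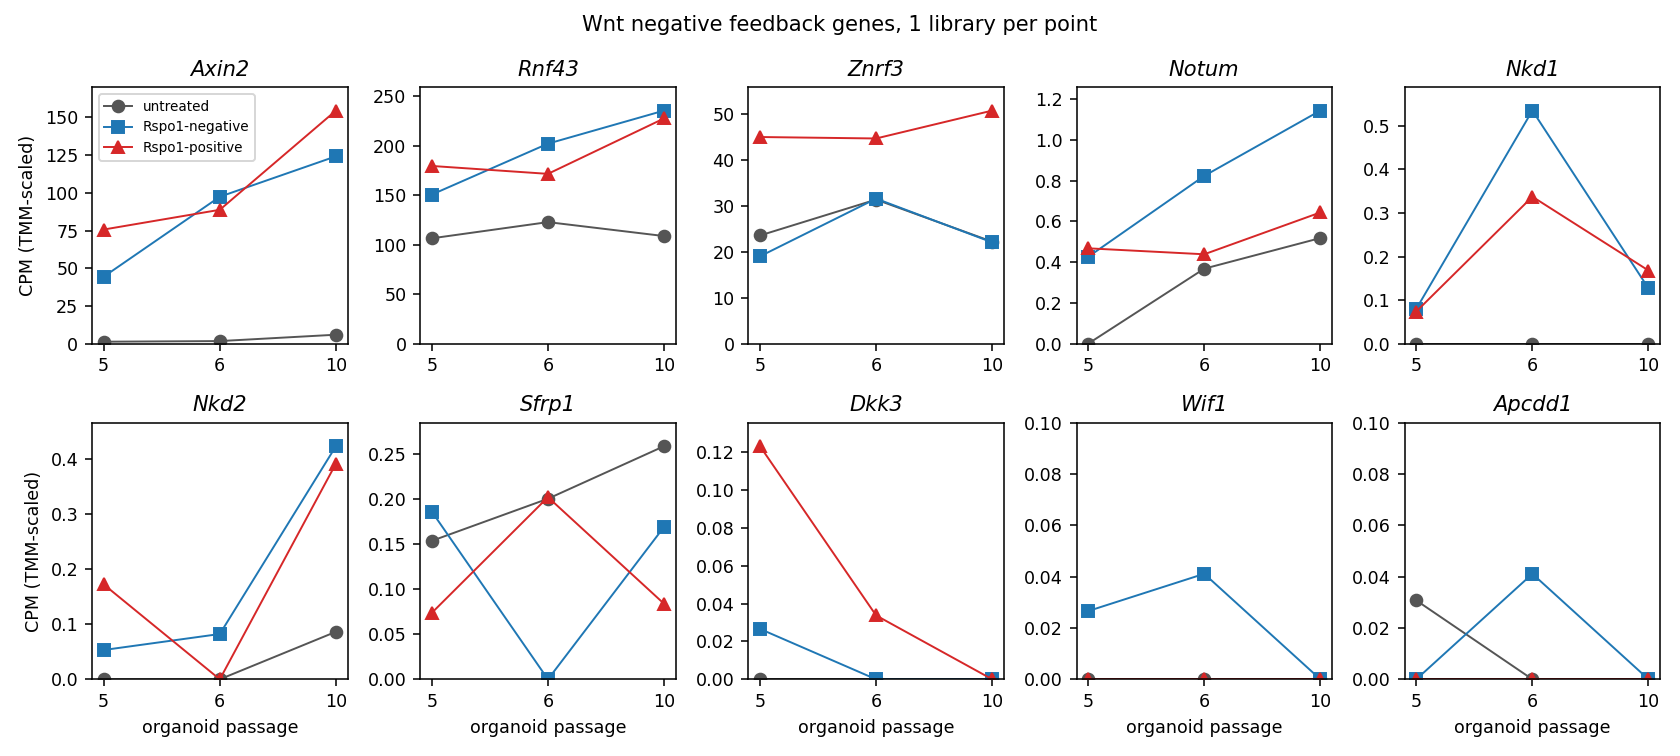
Level of each gene (y axis, CPM, each panel with its own scale) against organoid passage (x axis, passages spaced evenly); each point is 1 library, and lines join libraries of 1 group. Axin2 and Rnf43 are higher in both Rspo1 groups than in untreated cells, Znrf3 is raised in the Rspo1-positive group, at 44.8 to 50.8 CPM, and the 6 untested genes stay below 1 CPM.

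**Figure D2:**
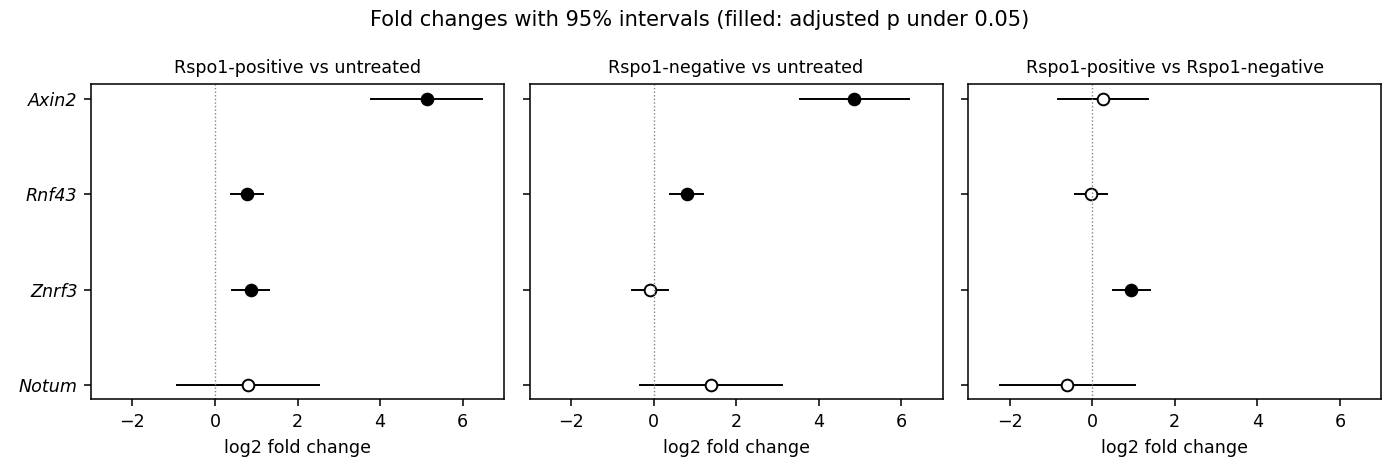
Log2 fold change (x axis) of the 4 tested genes in each comparison of 2 groups, with 95% intervals from edgeR's quasi-likelihood fit; filled points have an adjusted p under 0.05. Axin2 lies at 5.13 and 4.87 against untreated cells, and Znrf3, at 0.95, is the called gene between the Rspo1 gates.

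Axin2 encodes a scaffold of the destruction complex that collects beta-catenin and its kinases. It lies on chromosome 11, 108920349 to 108950783, plus strand (ENSMUSG00000000142, GRCm38). Untreated libraries of passages 5, 6 and 10 held 1.32, 1.74 and 5.96 CPM of Axin2. Rspo1-negative libraries held 44.4, 97.4 and 124 CPM of Axin2, and Rspo1-positive libraries held 75.7, 88.7 and 155 CPM. Every Rspo1 library was above every untreated one, and the 2 Rspo1 groups overlapped. Among all tested genes, 11.4% had every Rspo1-positive value above every untreated value, and 16.4% had every Rspo1-negative value above. Within a passage, Axin2 in Rspo1-positive cells was 57.2, 51.0 and 25.9 times the untreated level at passages 5, 6 and 10, and in Rspo1-negative cells 33.5, 56.0 and 20.8 times. The smallest ratio stood at passage 10 in both, where the untreated level was highest; with 1 library per passage and group this difference in ratio was not tested. In edgeR's fit Axin2 exceeded its untreated level by 5.13 log2 units in the tdTom-positive gate (SE 0.61, adjusted p = 0.00131) and by 4.87 in the tdTom-negative gate (SE 0.60, adjusted p = 0.00115).

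Although the gates were set on an Axin2-driven reporter, Axin2 itself was not separated by them. The log2 fold change of Axin2 between Rspo1-positive and Rspo1-negative cells was 0.26, with a 95% interval from -0.84 to 1.36 (adjusted p = 0.733 by edgeR), an interval that also holds differences of more than 1 log2 unit. Within passages 5, 6 and 10 the Rspo1-positive level was 1.70, 0.911 and 1.24 times the Rspo1-negative level, so its direction was not the same at each passage. The authors' deposited table gives Axin2 a log2 fold change of 0.30 with an adjusted p of 0.118 for these gates.

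Axin1, the paralogous scaffold that most cells make without Wnt input, served as a within-library reference on the deposited FPKM scale, which accounts for gene length. Axin2 FPKM was 0.0179, 0.0239 and 0.0654 of Axin1 FPKM in untreated libraries at passages 5, 6 and 10. The ratio of Axin2 to Axin1 FPKM was 0.568, 1.11 and 1.13 in Rspo1-negative and 1.04, 1.32 and 1.84 in Rspo1-positive libraries. The scaffold transcripts were thus almost entirely Axin1 in untreated cells, and Axin2 exceeded Axin1 in 5 of the 6 Rspo1 libraries. Axin1 passed no test between groups: relative to untreated cells edgeR gave it -0.09 log2 units in Rspo1-positive (adjusted p = 0.868) and 0.22 in Rspo1-negative cells (adjusted p = 0.365).

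**Figure D3:**
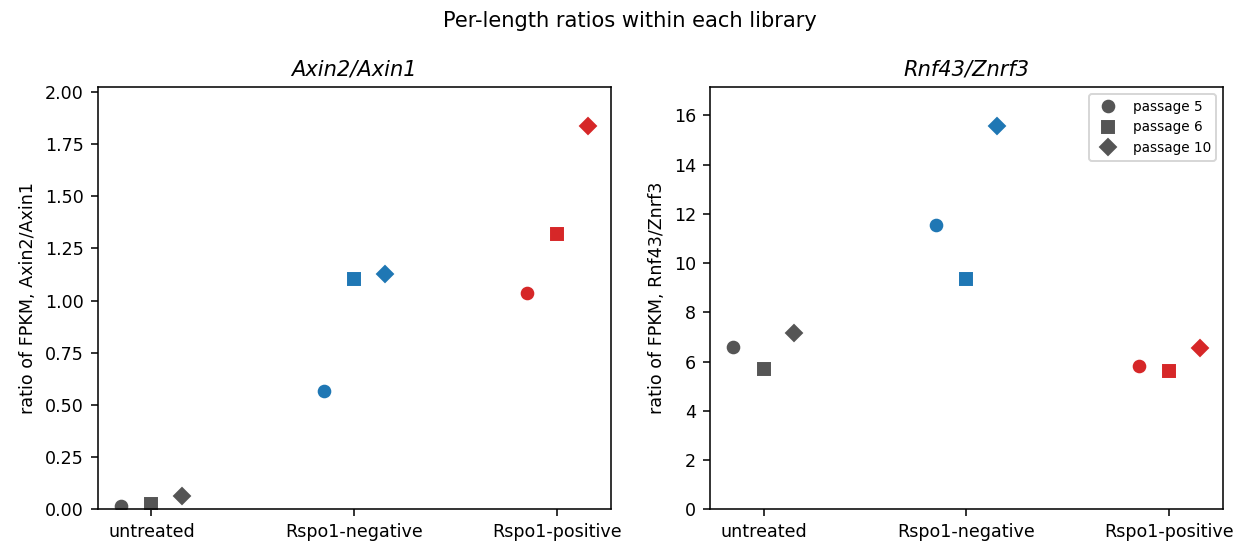
Ratio of deposited FPKM values within each library (y axis, from 0) for Axin2 to Axin1 and Rnf43 to Znrf3, by group (x axis); each point is 1 library and its shape gives the passage. The Axin2 to Axin1 ratio rises from at most 0.0654 in untreated to at least 0.568 in Rspo1 libraries, while the Rnf43 to Znrf3 ratio is highest in the Rspo1-negative group, at 9.34 to 15.6.

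The stretch before the transcription start was examined for members raised over untreated cells in both Rspo1 gates, since beta-catenin acts through TCF/LEF sites in DNA. RefSeq (GRCm38.p6) windows matched 5 of the 10 members: Axin2, Nkd1, Nkd2, Rnf43 (with 2 start sites) and Wif1. The 3 windows shown are the 250 bases before a start of Axin2 (chr11:108920099-108920348, plus strand), Nkd1 (chr8:88527383-88527632, plus strand) and the second start of Rnf43 (chr11:87699647-87699896, plus strand). None holds an exon base in GENCODE M21, and the windows of Nkd1 and Rnf43 lie inside the span of their genes. Capitals mark CpG dinucleotides.
Axin2: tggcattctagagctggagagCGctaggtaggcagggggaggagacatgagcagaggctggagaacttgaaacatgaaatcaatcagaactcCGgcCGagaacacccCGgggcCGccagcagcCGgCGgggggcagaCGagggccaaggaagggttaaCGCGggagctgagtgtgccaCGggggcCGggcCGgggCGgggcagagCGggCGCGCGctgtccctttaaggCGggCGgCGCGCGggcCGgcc
Nkd1: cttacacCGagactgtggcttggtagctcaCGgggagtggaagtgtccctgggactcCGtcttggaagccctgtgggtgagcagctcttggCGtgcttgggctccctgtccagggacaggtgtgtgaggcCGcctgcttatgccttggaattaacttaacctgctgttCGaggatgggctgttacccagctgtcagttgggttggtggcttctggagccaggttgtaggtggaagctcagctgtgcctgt
Rnf43: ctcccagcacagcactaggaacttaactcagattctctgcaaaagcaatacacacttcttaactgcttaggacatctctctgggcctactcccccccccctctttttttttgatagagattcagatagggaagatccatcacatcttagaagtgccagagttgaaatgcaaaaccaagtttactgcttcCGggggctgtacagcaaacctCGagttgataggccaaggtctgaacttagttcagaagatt
The Axin2 window has a GC content of 69.2% and 24 CpG, that of Nkd1 58.4% and 6 CpG, and that of Rnf43 45.2% and 2 CpG, beside medians of 52.4% and 6 CpG over 32851 windows of the same length. The TCF/LEF core motif, searched as CTTTGAT and CTTTGAA on both strands, was found in none of the 6 member windows, and 7.48% of all windows hold it. The 3 genes therefore differ widely in base composition next to the start shown, and these letters do not occur in the stretch examined.

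Znrf3 and Rnf43 are paralogous ubiquitin ligases at the cell surface and the direct targets of R-spondin action on protein. Znrf3 lies on chromosome 11, 5276324 to 5444847, minus strand (ENSMUSG00000041961), and Rnf43 on chromosome 11, 87662722 to 87735539, plus strand (ENSMUSG00000034177), both in GRCm38. Rnf43 was the most abundant member per length in each group, at 25.7 ± 1.98 FPKM (SD, n = 3) in untreated, 45.7 ± 9.14 FPKM in Rspo1-negative and 44.0 ± 6.23 FPKM in Rspo1-positive cells. Znrf3 stood at 4.02 ± 0.768, 3.87 ± 1.0 and 7.32 ± 0.426 FPKM (SD, n = 3) in the same order, and Axin2 at 0.694 ± 0.591, 20.9 ± 9.27 and 24.5 ± 9.37 FPKM. In untreated cells the order was therefore Rnf43, Znrf3, Axin2 and Notum, with no overlap between neighbours, and in both Rspo1 groups Axin2 had passed Znrf3.

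Rnf43 levels in untreated libraries were 106, 123 and 109 CPM at passages 5, 6 and 10. In Rspo1-negative libraries Rnf43 had 151, 202 and 235 CPM, and in Rspo1-positive libraries 179, 171 and 227 CPM. All 6 Rspo1 libraries were above all 3 untreated ones, and the 2 gates were interleaved. Relative to untreated cells, edgeR put Rnf43 at 0.80 log2 units in Rspo1-negative (SE 0.18, adjusted p = 0.0119) and 0.78 in Rspo1-positive cells (SE 0.18, adjusted p = 0.0320). Between the gates it was -0.02, with a 95% interval from -0.42 to 0.37 (adjusted p = 0.941 by edgeR). Within passages 5, 6 and 10 the ratio of Rspo1-positive to untreated Rnf43 was 1.69, 1.40 and 2.09, and that of Rspo1-negative to untreated 1.42, 1.65 and 2.17. The call of Rnf43 in Rspo1-positive cells was lost in each of the 6 fits that left out 1 library of the groups compared (adjusted p by edgeR from 0.0543 to 0.128, the extremes being the fits that omit untreated replicate 2 and Rspo1-positive replicate 3). These leave-out fits had no term for passage. The call of Rnf43 in Rspo1-positive cells was kept in the 8 alternatives other than leaving out a library. Its adjusted p was 0.00546 with the replicate block (edgeR) and 0.00114 by DESeq2. The call in Rspo1-negative cells was kept in all 17 alternative fits, with an adjusted p of at most 0.0444.

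Znrf3 levels were 23.6, 31.4 and 22.2 CPM in untreated and 19.1, 31.6 and 22.1 CPM in Rspo1-negative libraries at passages 5, 6 and 10. In Rspo1-positive libraries Znrf3 had 45.1, 44.8 and 50.8 CPM. The Rspo1-positive libraries lay above all 6 others, which overlapped with each other. Between the gates, 24.6% of all tested genes had every Rspo1-positive value above every Rspo1-negative one. Between the gates edgeR gave Znrf3 a difference of 0.95 log2 units (SE 0.20, 95% interval 0.50 to 1.40, adjusted p = 0.00909). Relative to untreated cells Znrf3 stood at 0.86 (SE 0.20, adjusted p = 0.0337) in Rspo1-positive cells and at -0.09 (95% interval -0.53 to 0.36, adjusted p = 0.795) in Rspo1-negative cells. Same-passage ratios of Rspo1-positive to Rspo1-negative Znrf3 were 2.37, 1.41 and 2.30, and those of Rspo1-negative to untreated 0.807, 1.01 and 0.993.

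The gate difference of Znrf3 was kept in all 17 alternative fits, with log2 fold changes from 0.80 to 1.17 and adjusted p-values of at most 0.0464. Fold changes that involve the Rspo1-negative group vary with transcript GC content and length, and with an offset for both the gate difference was 0.82 (adjusted p = 0.0247 by edgeR). Against untreated cells the Znrf3 call depended more on single libraries: of the 6 fits that left out a library of the groups compared it was kept in 1, without untreated replicate 2, and the adjusted p reached 0.119 without untreated replicate 1. It was also lost without Rspo1-negative replicate 3 (adjusted p = 0.0502 by edgeR). These leave-out fits had no term for passage. The Znrf3 call against untreated cells was kept in the 8 alternatives other than leaving out a library. Its adjusted p was 0.00312 with the replicate block (edgeR) and 0.0020 by DESeq2. Proliferation genes were highest in the same group as Znrf3 (906 to 1210 summed CPM against at most 504 elsewhere), and 2 dissociation response genes were called higher in that gate as well, Fos by 1.80 log2 units (adjusted p = 0.0308 by edgeR) and Fosb by 3.39 (adjusted p = 0.0180). Under the replicate block 4 of the 10 dissociation genes were called higher between the gates and 1 lower, where it called 6624 of all 17011 tested genes. The part of either list in the Znrf3 result was not tested.

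The balance of the ligase transcripts differed accordingly. The ratio of Rnf43 to Znrf3 FPKM was 6.60, 5.72 and 7.15 in untreated libraries and 5.83, 5.61 and 6.55 in Rspo1-positive libraries of passages 5, 6 and 10. In Rspo1-negative libraries the Rnf43 to Znrf3 ratio was 11.6, 9.34 and 15.6, above all 6 other libraries. The rise of Rnf43 in tdTom-negative cells was not matched by Znrf3, whereas in tdTom-positive cells the ratio overlapped that of untreated cells.

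Nkd1 and Nkd2, which bind Dishevelled and dampen the signal downstream of the receptor, were counted rarely. Nkd1 (chromosome 8, 88521354 to 88594884, plus strand) had 0 counts in all 3 untreated libraries. It had 3, 13 and 3 counts in Rspo1-negative and 3, 10 and 6 counts in Rspo1-positive libraries at passages 5, 6 and 10. All 6 Rspo1 libraries thus held Nkd1 reads and no untreated library did. Set against a floor of 3 counts over the untreated group, the pooled Nkd1 level was 7.20 times the floor in Rspo1-negative and 5.80 times in Rspo1-positive cells. Both ratios take the 19 counts of each group as they stand. The exact 95% Poisson intervals of those counts run from 0.134 to 0.347 and from 0.108 to 0.280 CPM. The 0 untreated counts allow up to 0.038 CPM, above the floor of 0.0309 CPM, so the ratios are not lower limits. Nkd1 did not pass the filter on low counts, and in the alternative fit without that filter its adjusted p by edgeR was 0.00334 for Rspo1-negative and 0.0139 for Rspo1-positive against untreated cells.

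Nkd2 (chromosome 13, 73818534 to 73847631, minus strand) had 0, 0 and 3 counts in untreated, 2, 2 and 10 in Rspo1-negative and 7, 0 and 14 in Rspo1-positive libraries. The groups overlapped, and passage 10 held the highest count in each. Pooled over libraries, the ratio of Nkd2 CPM to untreated was 5.30 (95% Poisson interval 1.48 to 28.8) in Rspo1-negative and 6.42 (1.92 to 33.6) in Rspo1-positive cells, intervals for counting error only. The fit without the filter gave Nkd2 an adjusted p of 0.182 and 0.297 in these comparisons (edgeR), so it passed in neither.

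Notum, the secreted carboxylesterase that inactivates Wnt ligands (chromosome 11, 120653788 to 120661175, minus strand), had 0, 11 and 18 counts in untreated, 16, 20 and 27 in Rspo1-negative and 19, 13 and 23 in Rspo1-positive libraries. The 3 groups overlapped. Relative to untreated cells Notum was at 1.39 log2 units in Rspo1-negative (SE 0.78, adjusted p = 0.226 by edgeR) and 0.80 in Rspo1-positive cells (SE 0.78, adjusted p = 0.702), and between the gates at -0.60 (adjusted p = 0.591). Of the exon bases of Notum, 29.4% are shared with the antisense gene Notumos and 8.72% with the antisense gene Myadml2os. The strand setting of the counting is not given in the sources used here, so these reads could not be assigned to one strand.

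The remaining extracellular antagonists were close to absent at this depth. Sfrp1, a decoy that binds Wnt outside the cell, had 5, 6 and 9 counts in untreated, 7, 0 and 4 in Rspo1-negative and 3, 6 and 3 in Rspo1-positive libraries. Its pooled ratio to untreated was 0.625 (95% Poisson interval 0.270 to 1.37) in Rspo1-negative and 0.550 (0.245 to 1.18) in Rspo1-positive cells, both intervals including 1. Dkk3, a secreted relative of the Dickkopf antagonists, had 0 counts in untreated libraries, 1 in 1 Rspo1-negative library, and 5, 1 and 0 in Rspo1-positive libraries, with 5 of those 6 in the passage 5 library. Wif1, a secreted Wnt-binding inhibitor, had 1 count in each of 2 Rspo1-negative libraries and 0 elsewhere. Apcdd1, a membrane glycoprotein that binds Wnt and Lrp5, had 1 count in 1 untreated and 1 in 1 Rspo1-negative library. Wif1 and Apcdd1 did not exceed the floor of 3 counts in any group, and no fold is given for them.

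Across passages, Axin2 was the tested member called at passage 10 against 5. Each passage is 1 replicate number with 1 library of each group, so passage cannot be told apart from the replicate. P-values between passages measure how far the 3 groups agree, not the spread between independent cultures of a passage. In a fit of group and passage, edgeR placed Axin2 1.48 log2 units higher at passage 10 than at passage 5 (SE 0.24, adjusted p = 0.00424), where 9.07% of all tested genes were called and 4.57% were called higher. Its highest level stood at passage 10 in each of the 3 groups, as did that of Notum; 14.0% of all tested genes show that order. Notum had 1.43 (SE 0.59, adjusted p = 0.147 by edgeR), and in the fit without the low-count filter an adjusted p of 0.0294. Rnf43 had 0.34 (adjusted p = 0.160) and Znrf3 0.10 (adjusted p = 0.713). At passage 10 against 5, 4 of the 16 other beta-catenin targets were called higher and 1 lower, 1 of 13 receptors higher and 2 lower, and 1 of 19 intracellular components higher. Of these, Sp5 rose from passage 5 to 10 by 1.45 (adjusted p = 0.00403 by edgeR), while Lgr5 fell by 1.67 (adjusted p = 0.0424). The Axin2 call was lost without Rspo1-negative replicate 1 (1.33, adjusted p = 0.0503 by edgeR) and in a fit with no group term. Of 10 dissociation response genes, 5 were called lower at passage 10 by edgeR (8 by DESeq2), and their part in the Axin2 change was not tested. Between passages 6 and 5, where 2.49% of all genes were called, none of the 4 members was called by edgeR or DESeq2. By edgeR's unadjusted p-values, Axin2 (0.62 log2 units, 0.0227) and Znrf3 (0.38 log2 units, 0.0317) were under 0.05 there, and Axin2 passed the adjusted threshold in the fit with no filter (adjusted p = 0.00559) and without untreated replicate 2 (0.0487).

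The rest of the pathway was read from lists of other antagonists, receptors, intracellular components and target genes. Of 9 tested other Wnt antagonists, none was called in Rspo1-positive against untreated cells by edgeR, where 5.21% of all tested genes were called and 3.07% higher. Their median log2 fold change was -0.12 against -0.01 over all tested genes. By edgeR 1 was under an unadjusted p of 0.05, and DESeq2 called 1. With passage as a replicate block 1 was called, Shisa2, at 2.21 log2 units (adjusted p = 3.45e-05 by edgeR), where the block called 2247 of all tested genes. In Rspo1-negative against untreated cells, where 21.9% of all tested genes were called and 8.00% higher, 2 antagonists were called higher and 1 lower. The higher ones were Dact2, a Dishevelled-binding protein (0.67), and Igfbp4, a secreted binding protein (0.60), and the lower one was Shisa3 (-1.31). Between the gates Dact2 was lower in Rspo1-positive cells (-0.79, adjusted p = 0.00757 by edgeR). Dact2 and Igfbp4 lost these calls with the GC and length offset (0.34 and 0.38 against untreated, -0.50 for Dact2 between the gates, which was called with block and offset together), and Shisa3 kept its call (-1.28). Passage 10 had 3 antagonists called higher than passage 5, Kremen2 (0.93), Shisa2 (0.94) and Gpc3 (0.98), where 4.57% of all tested genes were called higher. Between the gates the block gave 1 antagonist higher and 2 lower, and block and offset together 1 higher and 1 lower. Of all 17011 tested genes these fits called 6624 and 4197. With 9 tested genes, the counts against untreated cells do not set the other antagonists apart from all tested genes. Their median change against untreated lay near that of all genes.

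Among 13 tested receptors, 2 were called higher and 1 lower in Rspo1-positive against untreated cells, and 4 higher and 3 lower in Rspo1-negative against untreated cells. Over all tested genes 5.21% and 21.9% were called in these comparisons, and 3.07% and 8.00% were called higher. The R-spondin receptor Lgr5 rose by 4.82 (SE 0.88, adjusted p = 0.00991 by edgeR) and 3.97 (SE 0.87, adjusted p = 0.0109) in the 2 gates. Its relative Lgr4 fell by 1.22 in Rspo1-negative cells (adjusted p = 0.0029), from 81.8 ± 22.9 CPM (SD, n = 3) to 35.2 ± 6.10 CPM, and by 0.98 with the GC and length offset. Fzd5, a Frizzled receptor of the class that Znrf3 and Rnf43 remove, fell by 1.0 in Rspo1-positive (adjusted p = 0.00527) and by 1.51 in Rspo1-negative cells (adjusted p = 0.000993), whereas Fzd9 rose by 1.66 and 2.22. The co-receptor Lrp6 fell by 1.21 in Rspo1-negative cells (adjusted p = 0.0040), and by 0.68 with the offset, where its adjusted p was 0.0270. With the replicate block 3 receptors were called higher and 2 lower in Rspo1-positive against untreated cells, and between the gates 5 higher and 1 lower in place of 2 and 0. Of all 17011 tested genes the block called 2247 and 6624 in these comparisons. Both gate calls, Lrp6 and Fzd5, were lost under the offset for GC content and length (edgeR gave adjusted p = 0.282 and 0.0735), and block and offset together gave 1 higher and 1 lower. Receptor transcripts therefore moved in both directions while the ligase transcripts rose or passed no test.

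Of 19 tested intracellular components, 1 was called in Rspo1-positive against untreated cells: Tcf7, a TCF/LEF factor, higher by 2.49 (SE 0.42, adjusted p = 0.00686 by edgeR). In Rspo1-negative against untreated cells Tcf7 was higher by 2.06 and 6 components were lower, among them the destruction complex genes Apc (-1.75) and Gsk3b (-1.15). With the GC and length offset Apc was at -1.02 (adjusted p = 0.00388 by edgeR) and Gsk3b at -0.72 (adjusted p = 0.0130), so both kept the call at a smaller size. Against untreated cells 5.21% of all tested genes were called in Rspo1-positive and 21.9% in Rspo1-negative cells, with 3.07% and 8.00% called higher. Of 16 tested other beta-catenin targets, 4 were called higher and none lower in Rspo1-positive cells (median 0.34), and 4 higher and 3 lower in Rspo1-negative cells (median -0.01), each against untreated cells. The 4 higher genes were the same in both: Sp5, a transcription factor (4.83 in Rspo1-positive, 4.66 in Rspo1-negative), Ascl2, a stem cell transcription factor (3.60 and 3.85), Birc5 (3.14 and 1.75) and Sox9 (1.31 and 1.05). The 3 lower genes were Jag1 (-0.99), Rnf146 (-0.65) and Bmp4 (-0.60). Birc5 is also a cell cycle gene and Sox9 a biliary marker. Between the gates 4 targets were called higher, Cd44, Birc5, Jag1 and Rnf146, where 24.3% of all tested genes were called and 14.6% higher. DESeq2 called 4 targets. With the offset edgeR called none of the targets, 4 being higher and 1 lower at an unadjusted p under 0.05, and with the replicate block it called 7 higher and 1 lower. Of all 17011 tested genes, DESeq2 called 5139 between the gates, the offset 1568 and the block 6624.

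**Figure D4:**
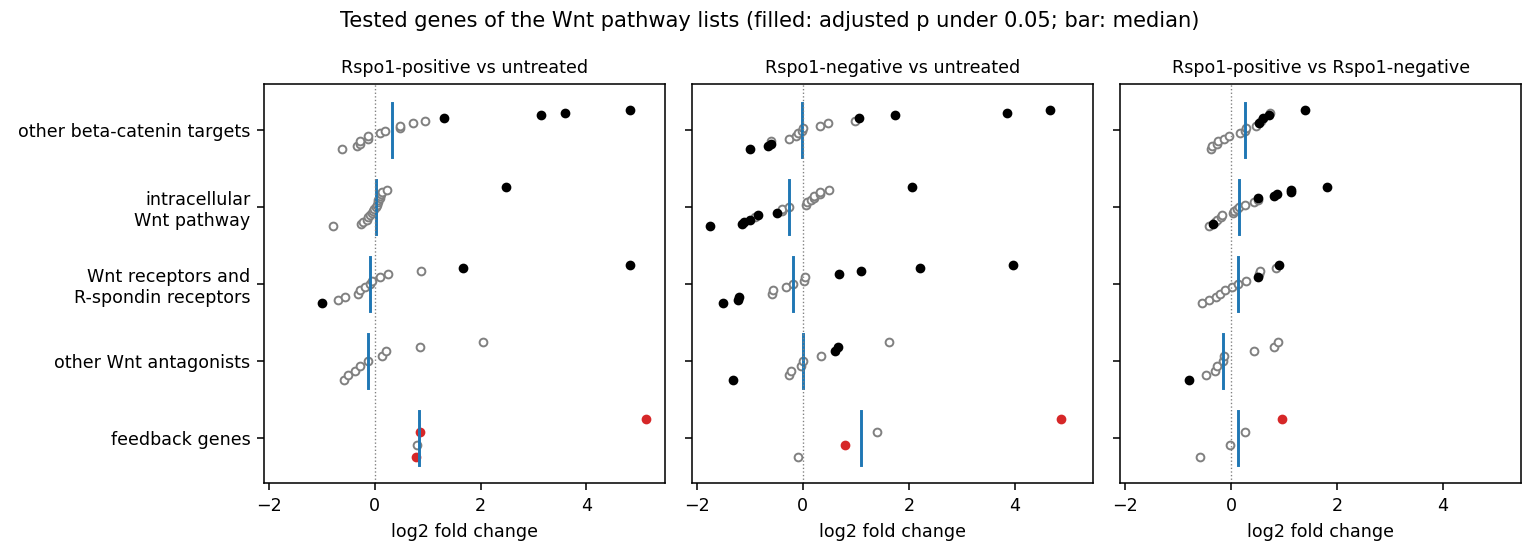
Log2 fold change (x axis) of each tested gene of the feedback set and of 4 other Wnt pathway lists (rows), in each comparison of 2 groups; filled points have an adjusted p under 0.05 by edgeR, and the bar is the list's median. Large rises in both Rspo1 groups are limited to a few genes per list, such as Lgr5 (4.82 and 3.97), Tcf7 (2.49 and 2.06), Sp5 (4.83 and 4.66) and Ascl2 (3.60 and 3.85).

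Genes whose profile over the 9 libraries lay closest to each member were ranked by the root mean square difference of log2 CPM after centring each gene on its own mean, over 14126 genes. The gene closest to Axin2 was Gm11670, at 0.29, which is antisense to Axin2 and shares 3.80% of the exon bases of Axin2. Without a stated strand setting, reads in that shared stretch cannot be assigned to either gene. Next came Esr1 (0.69), an estrogen receptor, Sp5 (0.70), Col14a1 (1.03), a collagen, and Esam (1.07), an adhesion molecule. Lgr5 ranked 33, Rnf43 451 and Znrf3 1729 by likeness to Axin2. The difference is not scaled to the size of a change. Genes that change far less than Axin2, as both ligases do, therefore cannot be among its closest profiles, whatever their pattern. The 5 genes closest to Znrf3 were Net1 (0.18), Ahr (0.18), Bcl11b (0.20), Zdhhc23 (0.20) and Nsd2 (0.21). Each had its highest mean in Rspo1-positive cells, a trait for which the ranking itself selects. For Net1 the means were 75.1, 70.5 and 117 CPM in untreated, Rspo1-negative and Rspo1-positive cells. The genes closest to Rnf43, a list added after its values had been seen, were Tfap4 (0.13), Agk (0.14), Enc1 (0.15), Lrig1 (0.16) and Efna4 (0.16). Lrig1 stood at 77.1, 164 and 140.4 CPM in the same order, a rise of both gates over untreated for which the ranking also selects. These ranks describe the 9 libraries and were not tested.

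The authors' deposited tables of the 3 comparisons list Axin2, Znrf3 and Rnf43 and none of the other 7 members. For Rspo1-positive against untreated cells the authors' deposited table gives log2 fold changes of 5.36 for Axin2, 0.89 for Znrf3 and 0.77 for Rnf43. For Rspo1-negative against untreated cells the authors' deposited table gives 5.06, -0.09 and 0.79 in the same order.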

How the data were processed

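Polyadenylated or total RNA selection is not given in the sources used here; per the labels' protocols, 100 ng of total RNA per sample was sequenced as single-end 75 bp reads. The authors deposited raw counts per gene and FPKM for each of 9 libraries, and tables with log2 fold changes, p-values and adjusted p-values for 3 comparisons, per the file headers. Those tables also hold a mean signal per gene and a test score, made by the authors with DESeq2 and not used here. The submitters' processing notes name Trimmomatic 0.35, FastQC 0.11.2, STAR 2.5.1b, featureCounts, DESeq2 and GRCm38. Across libraries the deposited FPKM scale follows size factors within 0.646% and total counts only within 17.1%; FPKM entered no test.

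Deposited counts were analysed with edgeR 4.0.16 in R 4.3.3: filterByExpr (minimum count 10, total 15) left 17011 of 32137 genes, scaling was by TMM, and all 9 libraries entered 1 quasi-likelihood fit of group, with Benjamini-Hochberg adjustment over the 17011 genes at 0.05. Passages were compared in a fit of group and passage. The SE is the size of the log2 fold change divided by the square root of F; CPM are on TMM-scaled sizes. Members with few counts were pooled per group with exact Poisson intervals (95%) and a floor of 3 counts over a group, both for counting error only. The alternatives were RLE and upper-quartile scaling, no filter, DESeq2 1.42.0, a GC and length offset (mgcv 1.9.3, covering 99.94% of tested genes), a replicate block, both together, only the 6 libraries compared, no group term for passages, deposited FPKM, and leaving out each library.

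The members and lists were chosen with earlier results of these data known. Genes named are the 10 members, the 5 genes most like Axin2, Znrf3 and Nkd1 (Nkd1 did not pass the filter and was not ranked), and genes of the lists. Replicate numbers pair the libraries by a shared passage in the labels: deviations from group means correlated at 0.123 to 0.573 in 9 same-passage pairs and -0.476 to 0.0826 in 18 others.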

Additional observations from a re-analysis of the deposited data

Results flagged for a closer look

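Znrf3 changed differently in the 2 sort gates: its change against untreated cells was larger in tdTom-positive than in tdTom-negative cells by a log2 fold change of 0.95 (adjusted p = 0.00909 by edgeR), higher in 3 of 3 same-passage pairs, with both changes taken against the same untreated libraries. Between the gates 24.3% of all tested genes were called and 14.6% were called higher. Among all tested genes 24.6% had every Rspo1-positive value above every Rspo1-negative one, so Znrf3 is not unusual in this.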

How the results depend on the processing

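Leaving out 1 library at a time, the number of members called in Rspo1-positive against untreated cells ranged from 1 to 3; the values without Rspo1-positive replicates 1, 2 or 3 and without untreated replicates 1 or 3 were all 1. For passage 10 against 5 the range was 0 to 1, with 0 without Rspo1-negative replicate 1, and the count was 2 with no filter on low counts and 0 with no group term. For passage 6 against 5 the range was 0 to 1, and the count was 1 with no filter. Members called between the gates (1) and in Rspo1-negative against untreated cells (2) did not move in any of 17 alternatives each. All these counts cover only the 4 members that passed the filter on low counts. With no filter Nkd1 also passed, with an adjusted p by edgeR of 0.00334 in Rspo1-negative and 0.0139 in Rspo1-positive against untreated cells.

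Uncalled values changed sign when 1 library was left out. Axin2 between the gates ranged from -0.11 (Rspo1-positive replicate 3 left out) to 0.53 and was -0.06 when Rspo1-negative replicate 1 was left out. Rnf43 between the gates ranged from -0.18 to 0.078 and was 0.071 with the GC and length offset and 0.074 with block and offset. Znrf3 in Rspo1-negative against untreated cells ranged from -0.30 to 0.084, and at passage 10 against 5 from -0.042 to 0.20. The cause was not tested. With the replicate block the members called numbered 3, 1 and 2 in Rspo1-positive against untreated, between the gates and in Rspo1-negative against untreated cells, so the pairing changed no call of a member.

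Counts over all genes moved more. Against 886, 4141 and 3724 genes in that order, the block gave 2247, 6624 and 6039, block and offset gave 2698 in the first, the offset 1568 and 1579 in the last 2, DESeq2 1506 and no filter 1446 in the first, and the fit of 6 libraries 2299 in the last. Leaving out 1 library gave 390 to 899, 2061 to 4555 and 1800 to 3772. For passage 10 against 5 (1543) no filter gave 2784, no group term 17 and leaving out 1 library 405 to 3594; for passage 6 (423) these were 1193, 0 and 105 to 846, and DESeq2 gave 851. Depth limits the 6 untested members, for which a change could be shown only where a group exceeded 3 counts.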
